A study of Mus musculus with 2 samples.

Results

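The 10 genes described here belong to the antioxidant program of the transcription factor NRF2 and to iron storage. They are Hmox1, Nqo1, Gclm, Gclc, Txnrd1, Srxn1, Slc7a11, G6pdx, Fth1 and Ftl1, taken by symbol from the count tables of both libraries. All 10 were found, among 52636 genes in each table, and all 10 passed the minimum of 50 counts in the higher library. Per the labels, the tissue was retina of 8-week-old C57BL/6 mice, and there was 1 RNA-seq library from miR-29a KO mice, which lack the microRNA miR-29a, and 1 from WT (wild-type) mice. By the same labels, each library came from the pooled retinas of 3 mice, with ribosomal RNA depleted. The labels do not say how the KO allele was made or in which cells it acts. With 1 pooled library per genotype there is no replicate check and no test, so each difference is one between these 2 libraries, and the intervals given cover counting error only.

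NRF2, encoded by Nfe2l2, is kept low by the adaptor KEAP1, which brings it to a ubiquitin ligase. Oxidants and electrophiles release it, and it then binds antioxidant response elements in DNA together with small MAF proteins, while BACH1 represses many of the same genes when heme is scarce. Its targets make glutathione, recycle thiols, supply NADPH, break down heme and store iron. In the retina, where light, high oxygen use and iron all favour oxidative damage, these genes are studied as a protective program. The microRNA deleted in the KO mice represses transcripts through its seed, bases 2 to 8, shown here in capitals in the RefSeq mature sequence (GRCm38.p6, chr6:31062673-31062694, minus strand).
mmu-miR-29a-3p: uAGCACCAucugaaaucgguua
The 3p forms of miR-29b and miR-29c carry the same seed, AGCACCA.

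The libraries held 24876925 counts (KO) and 26805902 counts (WT). The labelled tissue is retina, but its defining photoreceptor markers were at or near 0 in both. The 12 of them together reached 1.33 CPM (counts scaled to library size) in the KO library and 1.60 CPM in the WT library, 4 of them were at 0 in both, and none had 50 counts. Other retinal lists were measured in part. Of 5 Mueller glia markers 3 passed the minimum, led by Dkk3 and Glul, with sums of 478 CPM (KO) and 495 CPM (WT). Of 6 retinal ganglion cell markers 2 passed, Rbpms and Sncg, with list sums of 54.0 CPM (KO) and 53.7 CPM (WT). Of 7 bipolar and amacrine markers 2 passed, Prkca and Slc6a9, with list sums of 66.9 CPM (KO) and 47.7 CPM (WT). Which cells these transcripts came from was not tested. Of the 6 pigment epithelium markers, Rpe65, Rgr and Lrat were at 0 in both. Ttr had 9 counts (KO) and 89 counts (WT), Tyr 21 counts (KO) and 80 counts (WT), and Best1 43 counts (KO) and 31 counts (WT), so the 2 that passed the minimum, Ttr and Tyr, were lower in the KO library by 2-fold or more. Fibroblast markers summed to 17706 CPM in the KO library and 15462 CPM in the WT library, led by Igfbp4. All 14 macrophage markers were higher in the KO library by 2-fold or more, with sums of 1514 CPM (KO) and 390.5 CPM (WT). The sex-linked transcripts also differed, with 0 counts of Xist in the KO library and 4288 in the WT library. The Y-linked Kdm5d had 310 counts (KO) and 30 counts (WT), and Ddx3y 376 counts (KO) and 67 counts (WT). A difference in the sex of the pooled mice therefore cannot be told apart from genotype in any difference given here. Mir29a itself had 0 counts in both. Such libraries rarely capture a short precursor, so it checks neither label. Fewer cells of a type and less RNA per cell cannot be told apart in such pooled tissue.

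Among the 10 genes, the differences between the libraries were largest for a pair that supply glutathione. The cystine importer gene Slc7a11 and the catalytic subunit gene Gclc of glutamate-cysteine ligase were higher in the KO library by more than 2-fold, and the quinone reductase gene Nqo1 came close to it. The ferritin heavy chain gene Fth1 was higher by 1.38-fold. The other 6 genes, among them Hmox1 and the ferritin light chain gene Ftl1, had an absolute log2 ratio under 0.3. By 2-fold, 2 of the 10 genes counted as higher, 0 as lower and 8 as neither. Among all 12382 measured genes, 4.47% were higher by that size and 2.82% lower. The median log2 ratio of the 10 genes was 0.25, against 0.06 over all measured genes. All 10 ratios were above 0, as were 54.98% of all measured genes, but those of Hmox1 and Ftl1 were below 0 with median-of-ratios factors and with the authors' FPKM, that of Ftl1 also with TMM factors, and those of Gclm and Txnrd1 after a correction for transcript GC content and length.

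**Figure D1:**
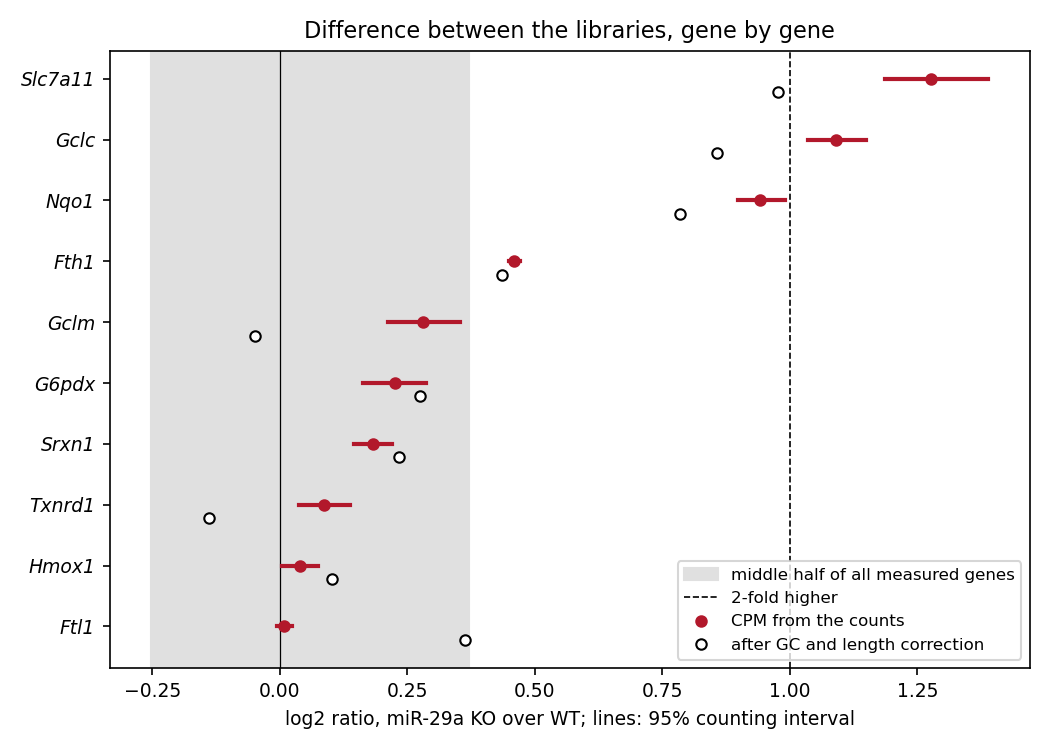
Log2 ratio (KO over WT) of each gene from CPM (filled points, with 95% counting intervals) and after correction for transcript GC content and length (open points); the grey band spans the 25th to 75th percentile of 12382 measured genes and the dashed line marks 2-fold. Slc7a11 (1.28), Gclc (1.09) and Nqo1 (0.94) stand far to the right of the band, Fth1 (0.46) just outside it, and the other 6 filled points lie within it.

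Slc7a11 encodes xCT, which brings in cystine in exchange for glutamate and so feeds glutathione synthesis. It had 2590 counts in the KO library and 1144 in the WT library, or 104 CPM (95% exact Poisson counting interval 100.1 to 108) against 42.7 CPM (40.2 to 45.2). The KO library was 2.44-fold higher (95% counting interval 2.27 to 2.62), which placed Slc7a11 above 97.5% of all measured genes. Its partner Slc3a2, the heavy chain that carries xCT to the membrane, had 269 CPM (KO) and 254 CPM (WT), a 1.06-fold difference (1.02 to 1.10). The count ratio of Slc7a11 to Slc3a2 was 0.387 in the KO library and 0.168 in the WT library. It was thus 2.30-fold higher (2.13 to 2.49) in the KO library, a value free of library scaling but not of transcript GC content. After the correction for GC content and length, the log2 ratios of Slc7a11 and Slc3a2 were 0.98 and 0.13. Slc7a11 (ENSMUSG00000027737, GRCm38, chromosome 3, 49892526 to 50443614, minus strand) is known to answer both to NRF2 and to the amino acid response factor ATF4. The 100 bases before its start site are shown because they hold a pair of copies of the ATF4-type core TGATGCAA, in capitals, in opposite orientations 66 and 47 bases before the start (RefSeq, GRCm38.p6, chr3:50443614-50443713, minus strand).
Slc7a11 promoter: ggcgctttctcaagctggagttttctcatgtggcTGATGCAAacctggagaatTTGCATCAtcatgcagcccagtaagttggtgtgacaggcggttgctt
This core, searched for after the sequence had been seen, occurs on either strand in 0.895% of 32851 RefSeq promoter windows of 250 bases before and 50 after a start.

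Glutamate-cysteine ligase, the rate-limiting enzyme of glutathione synthesis, joins the catalytic subunit Gclc with the modifier subunit Gclm. Gclc (ENSMUSG00000032350) lies on chromosome 9 from 77754535 to 77794485 (plus strand) and Gclm (ENSMUSG00000028124) on chromosome 3 from 122245557 to 122270732 (plus strand). Gclc had 7394 counts in the KO library and 3736 in the WT library, or 297 CPM (290.5 to 304) and 139 CPM (135 to 144). That is a 2.13-fold difference (2.05 to 2.22), above 96.3% of all measured genes. Gclm had 3528 and 3125 counts in the KO and WT libraries, or 142 CPM (KO) and 117 CPM (WT), 1.22-fold higher in the KO library (1.16 to 1.28). The subunits thus differed between the libraries by unequal amounts. The FPKM ratio of Gclc to Gclm, which allows for length, was 3.50 in the KO library and 2.00 in the WT library, and the count ratio was 1.75-fold higher (1.65 to 1.87) in the KO library.

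Both 2-fold calls ended when transcript GC content and length were taken into account. Across 12371 genes with an annotated transcript, which are not independent replicates, the log2 ratio went with GC content (Spearman's rho of -0.44), so transcripts poor in G and C stood higher in the KO library. Slc7a11 had a transcript GC content of 40.7%, Gclm 42.1%, Nqo1 46.7% and Gclc 47.7%, all below the median of 49.9% over measured genes. After subtraction of the median of genes with like GC content and then length, the log2 ratio was 0.98 for Slc7a11, 0.86 for Gclc and 0.78 for Nqo1, above 96.2%, 95.4% and 94.7% of genes. That of Gclm moved to -0.05 and that of Txnrd1 to -0.14, while Ftl1, with the highest GC content of the 10 (58.1%), moved to 0.36.

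**Figure D2:**
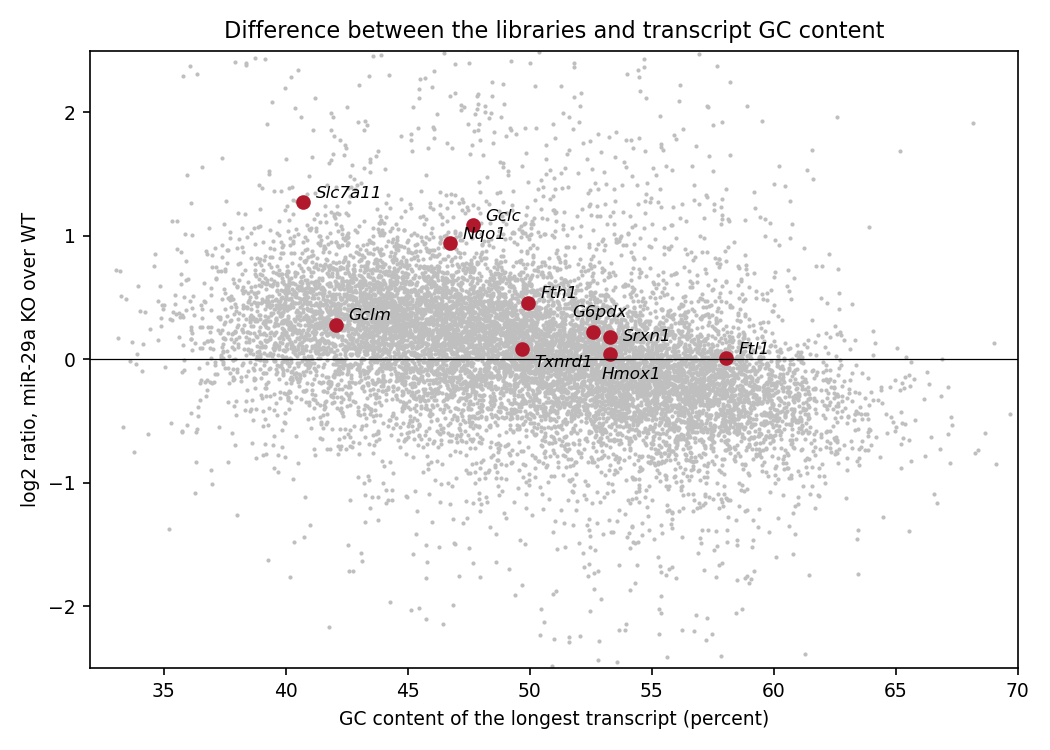
Log2 ratio (KO over WT) against the GC content of the longest annotated transcript, for measured genes (grey, 68 of them outside the axes) and the 10 genes (red). The grey cloud slopes down to the right, and Slc7a11, Gclc and Nqo1 sit near its upper edge in the left part while Ftl1 sits above most genes of similar GC content.

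Nqo1 (ENSMUSG00000003849, GRCm38 chromosome 8, 107388225 to 107403206, minus strand), which reduces quinones with NADH or NADPH and is a standard readout of NRF2, had 10582 counts in the KO library and 5929 in the WT library. Its level was 425 CPM (417 to 434) in the KO library and 221 CPM (216 to 227) in the WT library, a 1.92-fold difference (1.86 to 1.99). The whole interval lies under 2-fold, and Nqo1 lies above 94.9% of measured genes. With 1.5-fold as the size that counts, 3 of the 10 genes were higher in the KO library and 0 lower, beside 13.3% higher and 8.88% lower among all measured genes.

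Heme oxygenase 1, encoded by Hmox1, breaks heme into iron, carbon monoxide and biliverdin and is a classic target of both NRF2 and BACH1. Hmox1 (ENSMUSG00000005413, chromosome 8, 75093621 to 75100589, plus strand) had 12582 counts in the KO library and 13189 in the WT library, or 506 CPM (497 to 515) and 492 CPM (484 to 500.5). The fold was 1.03 (1.003 to 1.05), so Hmox1 and Nqo1, both abundant, differed from each other. The count ratio of Nqo1 to Hmox1 was 0.841 in the KO library and 0.450 in the WT library. That is 1.87-fold higher (1.80 to 1.95) in the KO library. After the GC and length correction, the log2 ratios of Nqo1 and Hmox1 were 0.78 and 0.10. Macrophages are known to express Hmox1 strongly. Their markers differed by far more than Hmox1 did, with Lyz2 at 846 CPM (KO) and 217 CPM (WT), C1qa at 130 CPM (KO) and 33.7 CPM (WT), and Cd163, the scavenger receptor for hemoglobin, named after its values were seen, at 62 counts (KO) and 8 counts (WT). The part of macrophage RNA in the level of Hmox1 or of any of the 10 genes was not tested.

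Thioredoxin reductase 1 (Txnrd1), which restores thioredoxin with NADPH, had 6425 counts in the KO library and 6519 in the WT library, at 258 CPM (KO) and 243 CPM (WT). The fold was 1.06 (1.03 to 1.10). Sulfiredoxin (Srxn1), which repairs overoxidized peroxiredoxins, had 11674 counts in the KO library and 11082 in the WT library, at 469 CPM (KO) and 413 CPM (WT), a fold of 1.14 (1.11 to 1.17). G6pdx, the first enzyme of the pentose phosphate pathway and a main source of NADPH, had 4397 counts in the KO library and 4052 in the WT library, at 177 CPM (KO) and 151 CPM (WT). It was 1.17-fold higher (1.12 to 1.22). These 3 differences lie within the 25th to 75th percentile of all measured genes, -0.25 to 0.37 on the log2 scale. G6pdx is X-linked, and its range (chromosome X, 74409483 to 74429194) overlaps the opposite-strand gene Ikbkg, with 1166 counts (KO) and 1109 counts (WT). The library kit named in the labels does not mark strand, so reads in the overlap cannot be told apart, and the part of the sex-linked difference in G6pdx was not tested.

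Promoters were searched on both strands for the core of the antioxidant response element, TGACNNNGC, through which NRF2 acts. The RefSeq table gave 11 promoter windows for 8 of the 10 genes, all but Hmox1 and Gclc, and 4 windows held the core, those of Gclm, Txnrd1 (1 of its 3), G6pdx and Srxn1. The core was in 12.4% of all 32851 windows. The stretches before the start site are shown with the match in capitals, which is the core read on the opposite strand, and are given for 3 genes that did not differ by 2-fold (GRCm38.p6, chr3:122245403-122245451, chr10:82859094-82859142 and chrX:74428909-74428957, the first pair on the plus strand and G6pdx on the minus strand).
Gclm: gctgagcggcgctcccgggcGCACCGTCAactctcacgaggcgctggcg
Txnrd1: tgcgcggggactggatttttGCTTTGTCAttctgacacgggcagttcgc
G6pdx: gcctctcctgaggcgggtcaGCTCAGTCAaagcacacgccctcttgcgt
The match of Srxn1 lies 28 bases after its start. Upstream, Srxn1 holds the AP-1 type site TGAGTCA, searched for after the sequence had been seen, 102 and 45 bases before the start (chr2:152105404-152105523, plus strand), which 5.20% of all windows hold.
Srxn1: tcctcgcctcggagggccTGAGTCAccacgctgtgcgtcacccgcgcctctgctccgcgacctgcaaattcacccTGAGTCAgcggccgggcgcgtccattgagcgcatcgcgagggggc
A longer form, with A or G before the core, was found in the Txnrd1 window alone of the 11, and in 6.31% of all windows. Nqo1, Slc7a11, Fth1 and Ftl1 had no match to the core in these windows, which says only that these letters are not there.

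**Figure D3:**
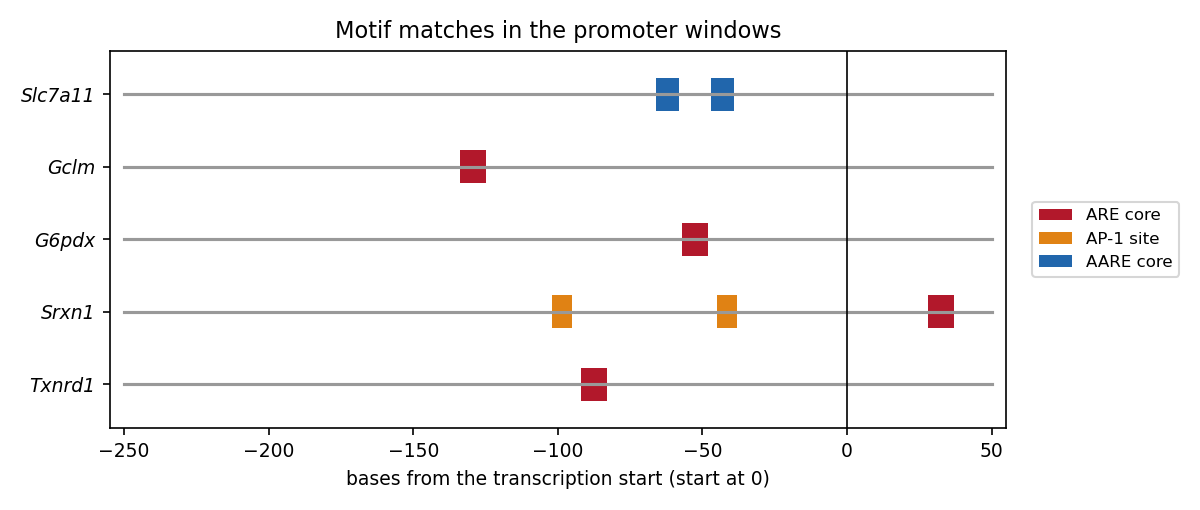
Positions of motif matches, in bases from the transcription start, in the RefSeq promoter windows (250 bases before to 50 after the start, grey lines) of the 5 genes with a match, ordered from the highest log2 ratio (Slc7a11, 1.28) to the lowest (Txnrd1, 0.09). Red marks the antioxidant response element core, blue the ATF4-type core (AARE) and orange the AP-1 type site; the blue pair is seen in Slc7a11 only.

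A match to the miR-29 seed, the heptamer TGGTGCT, was found in the longest annotated 3' UTR of 2 of the 10 genes, and in 14.1% of 21130 protein-coding genes searched. The matches lie at bases 4174 to 4180 of the 7364-base 3' UTR of Slc7a11 and at bases 1964 to 1970 of the 2184-base 3' UTR of Srxn1. The sites are shown in capitals, from GENCODE M21 transcripts.
Slc7a11 site: gcactctgtgtTGGTGCTgatagaatgca
Srxn1 site: aagatgcatcgTGGTGCTggattgattct
Slc7a11 was higher in the KO library by 2.44-fold and Srxn1 by 1.14-fold, whereas Gclc and Nqo1, at 2.13-fold and 1.92-fold, had no match. These values do not show whether miR-29a acts on either gene.

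Ferritin stores iron in a shell of heavy chains, which oxidize it, and light chains, which help to form the mineral core. Fth1 (ENSMUSG00000024661, chromosome 19, 9980598 to 9985098, plus strand) and Ftl1 (ENSMUSG00000050708, chromosome 7, 45457944 to 45459884, minus strand) were by far the most abundant of the 10 genes. Fth1 had 170626 counts in the KO library and 133663 in the WT library, or 6859 CPM (6826 to 6891) and 4986 CPM (4960 to 5013), and ranked 5 by count in the KO library and 9 in the WT library. The difference was 1.38-fold (1.37 to 1.39), above 80.7% of measured genes, and its log2 ratio lay between 0.39 and 0.46 under the scalings, pseudocounts and corrections tried. Ftl1 had 75492 counts in the KO library and 80844 in the WT library, at 3035 CPM (KO) and 3016 CPM (WT), a fold of 1.006 (0.996 to 1.02) whose counting interval holds 1. The FPKM ratio of Fth1 to Ftl1 was 3.50 in the KO library and 2.56 in the WT library. As a count ratio, free of library scaling, it was 1.37-fold higher (1.35 to 1.38) in the KO library, but after the GC and length correction the log2 ratios of Fth1 and Ftl1 were 0.43 and 0.36. The pseudogene Ftl1-ps1 had 2424 counts (KO) and 2278 counts (WT), whereas Fth-ps2 and Fth-ps3 had 0 counts in both libraries. Reads of the ferritin genes, above all of Ftl1, could be split with such processed copies, so these levels are uncertain to that extent. Together Fth1 and Ftl1 took 0.989% of all counts in the KO library and 0.800% in the WT library, most of the 1.23% (KO) and 0.982% (WT) taken by all 10 genes.

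Ferritin mRNAs are also governed in translation. When iron is low, iron regulatory proteins bind a hairpin in the 5' UTR, with the loop letters CAGUGN, and hold back translation, so a count does not give the protein. The hairpins are shown because both ferritin genes carry one, as does the iron exporter gene Slc40a1, with the first 5 loop letters (CAGTG in DNA) in capitals, from GENCODE M21 transcripts.
Fth1: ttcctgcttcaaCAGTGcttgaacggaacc
Ftl1: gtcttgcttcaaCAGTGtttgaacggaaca
Slc40a1: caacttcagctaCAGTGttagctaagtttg
Fth1 and Ftl1 have the same base at 26 of 30 positions here. The letters CAGTG, searched for after the sequences had been seen, occur in 28.6% of 3782 annotated 5' UTRs of 200 to 300 bases.

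By length-adjusted level, in the authors' FPKM, the order was nearly the same in both libraries. Fth1 stood at 8059 FPKM in the KO library and 6090.2 FPKM in the WT library, followed by Ftl1 with 2304 and 2381 FPKM in the KO and WT libraries. Hmox1 followed in both, at 294 FPKM (KO) and 297 FPKM (WT). Nqo1 was next in the KO library at 279 FPKM, ahead of Srxn1 at 169 FPKM, while in the WT library Srxn1 (155 FPKM, counting interval 152 to 158) and Nqo1 (151 FPKM, 147 to 155) could not be ordered within counting error. Gclc was sixth in the KO library at 80.3 FPKM, ahead of G6pdx at 58.4 FPKM, but seventh in the WT library at 39.1 FPKM, behind G6pdx at 51.9 FPKM. Txnrd1 had 37.1 FPKM (KO) and 36.3 FPKM (WT), and Gclm 22.9 FPKM (KO) and 19.6 FPKM (WT). Slc7a11 was lowest, at 7.61 FPKM (KO) and 3.24 FPKM (WT).

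**Figure D4:**
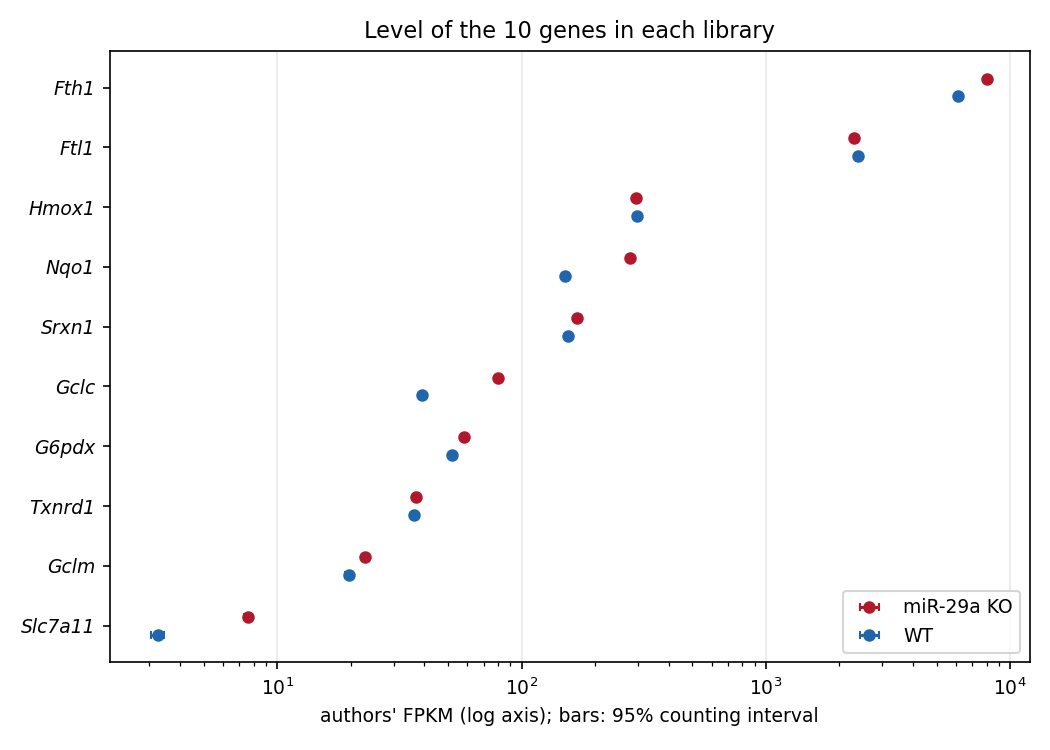
Level of each gene in the KO library (red, upper point) and the WT library (blue, lower point) as the authors' FPKM on a log axis, with 95% counting intervals, mostly narrower than the points. The ferritin genes stand at 2304 to 8059 FPKM, Slc7a11 at 3.24 and 7.61 FPKM, and the red and blue points are visibly apart for Slc7a11, Gclc, Nqo1 and Fth1.

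Among NRF2 and its regulators, none of 11 measured genes differed by 2-fold, and the median log2 ratio was 0.07. Nfe2l2 itself was the furthest from 0, with 527 CPM in the KO library and 278 CPM in the WT library, 1.90-fold higher (1.84 to 1.95). Keap1 was at 65.2 CPM (KO) and 92.1 CPM (WT), a fold of 0.708 (0.665 to 0.754), and Cul3, the scaffold of its ligase, was 1.43-fold higher (1.301 to 1.57). Sqstm1, the autophagy adaptor that sequesters KEAP1 and is itself an NRF2 target, had the highest CPM of the list, with 1657 CPM (KO) and 1303 CPM (WT). After the GC and length correction the log2 ratios were 0.75 for Nfe2l2, -0.23 for Keap1, 0.16 for Cul3 and 0.49 for Sqstm1. Before it, those of Cul3 and Sqstm1 were 0.51 and 0.35.

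Other NRF2 target genes lay around 0 as a list. Of 18 measured, 2 were higher by 2-fold and 0 lower, beside 4.47% and 2.82% of all measured genes. Of these 18, 7 were above 0 and 11 below, with a median log2 ratio of -0.03. The higher pair was Gsta3, a glutathione transferase gene at 338 counts (KO) and 168 counts (WT), 2.17-fold higher, and the exporter gene Abcc4 at 111 CPM (KO) and 54.2 CPM (WT), 2.04-fold higher. Both were under 2-fold after the GC and length correction, at log2 ratios of 0.76 and 0.84. Me1, the cytosolic malic enzyme that makes NADPH, was 1.84-fold higher (1.72 to 1.97). The highest CPM were those of Gsta4, with 641 CPM (KO) and 871 CPM (WT), and Gstp1, with 609 CPM (KO) and 507 CPM (WT), so these transferase genes differed in opposite directions.

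In the wider glutathione list, 1 of 19 measured genes was higher by 2-fold and 2 were lower, beside 4.47% and 2.82% of all measured genes. The median log2 ratio of the list was 0.15. Ggct, whose enzyme releases 5-oxoproline from gamma-glutamyl peptides, was 3.93-fold higher (747 counts in the KO library and 205 in the WT library, 3.36 to 4.61). Ggt7, of the gamma-glutamyltransferase family, had 280 counts (KO) and 726 counts (WT), 2.41-fold lower (2.09 to 2.77), and the microsomal transferase gene Mgst2 had 204 counts (KO) and 505 counts (WT), 2.30-fold lower in the KO library (1.95 to 2.72). After the GC and length correction Ggt7 was at -0.90. The abundant peroxidase gene Gpx4, which protects lipids from peroxidation, was at 919.6 CPM (KO) and 1337 CPM (WT). Its fold was 0.688 (0.676 to 0.699), and Gpx1 was at 532 CPM (KO) and 480.5 CPM (WT). With the same correction the log2 ratio of Gpx4 moved from -0.54 to -0.19 and that of Gpx1 from 0.15 to 0.39.

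None of 16 measured genes of the thioredoxin and peroxiredoxin system differed by 2-fold (median 0.07). Prdx1, an NRF2-responsive peroxiredoxin, was at 1385 CPM (KO) and 899 CPM (WT), 1.54-fold higher (1.52 to 1.57), as was thioredoxin itself, Txn1, at 318 CPM (KO) and 206 CPM (WT). The mitochondrial Prdx3 was 1.68-fold higher (1.57 to 1.80), whereas Prdx5 was at 1035 CPM (KO) and 1220.4 CPM (WT). After the GC and length correction the log2 ratio of Prdx1 moved from 0.62 to 0.31 and that of Prdx5 from -0.24 to -0.008. Those of Txn1 and Prdx3 were then 0.48 and 0.51. None of 13 genes of the pentose phosphate pathway and other NADPH sources differed by 2-fold either (median 0.05, or -0.04 after that correction). Its main enzymes after G6pdx were close to equal, with Pgd at 609 CPM (KO) and 596 CPM (WT) and Tkt at 479.9 CPM (KO) and 456 CPM (WT). The lactonase gene Pgls stood out with 190.2 CPM (KO) and 313 CPM (WT), a fold of 0.608, beside Idh2 at 0.711 and the NAD kinase gene Nadk at 1.39.

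Of the iron list, 5 of 24 measured genes were higher in the KO library by 2-fold or more and 0 lower. Among all measured genes, 4.47% were higher by that size and 2.82% lower. In the list 17 were above 0, with a median log2 ratio of 0.36, or 0.25 after the GC and length correction. Lcn2, which encodes the siderophore-binding protein lipocalin 2, was 5.12-fold higher (6694 counts in the KO library and 1409 in the WT library, 4.83 to 5.43). The ferroxidase gene Heph was 3.51-fold higher (423 counts in the KO library and 130 in the WT library, 2.87 to 4.30) and Slc40a1, the iron exporter ferroportin, 3.33-fold higher (538 and 174 counts in the KO and WT libraries, 2.80 to 3.98). The other 2, named after their values were seen, were the transferrin receptor gene Tfrc at 728 counts (KO) and 297 counts (WT), 2.64-fold higher (2.30 to 3.03), and the transferrin gene Trf at 248 counts (KO) and 95 counts (WT), 2.81-fold higher (2.21 to 3.60). All 5 stayed past 2-fold under the scaling, pseudocount, count minimum, FPKM and GC alternatives. The abundant Steap3, an iron reductase gene, was at 789 CPM (KO) and 996 CPM (WT), and the iron chaperone gene Pcbp1 at 310.3 CPM (KO) and 329 CPM (WT). The macrophage markers, which differed in the same direction, had log2 ratios of 1.25 to 2.40 and a median of 2.01, and their part in the iron list was not tested.

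Genes of heme synthesis, transport and breakdown showed no 2-fold difference in 16 measured (median -0.04). The biliverdin reductase genes, which act after heme oxygenase, differed in opposite directions, with Blvrb at 203 CPM (KO) and 354 CPM (WT), a fold of 0.574 (0.555 to 0.594), and Blvra at 20.2 CPM (KO) and 12.01 CPM (WT), 1.68-fold higher (1.46 to 1.94). Hebp1 had a fold of 0.666, and the abundant heme transporter gene Slc48a1 one of 1.08. Red blood cell markers were near 0, with 5 of 6 at 0 in both libraries. Of the superoxide dismutases and catalase, 0 of 5 differed by 2-fold (median -0.12). Sod1 was at 245 CPM (KO) and 353 CPM (WT), its copper chaperone Ccs at 68.1 CPM (KO) and 86.5 CPM (WT), Cat at 218 CPM (KO) and 141 CPM (WT), and Sod3 at 609 CPM (KO) and 579 CPM (WT).

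The ATF4 amino acid response, which also drives Slc7a11, had 1 of 19 genes higher by 2-fold, 0 lower and a median log2 ratio of 0.13. That gene was the stress protein gene Nupr1, at 27.7 CPM (KO) and 13.6 CPM (WT), 2.04-fold higher (1.79 to 2.32), a call lost under 6 of 10 alternatives. The one-carbon gene Mthfd2 was 1.77-fold higher (1.55 to 2.02) and the serine synthesis gene Psat1 1.65-fold higher (1.53 to 1.77). The genes of highest CPM were Cebpb, at 272 CPM (KO) and 415 CPM (WT), and Atf5, at 252 CPM (KO) and 229 CPM (WT). After the GC and length correction the log2 ratio of Cebpb moved from -0.60 to -0.27 and that of Atf5 from 0.14 to 0.47. Over the 9 lists together, 9 of 141 measured genes were higher by 2-fold and 2 lower, beside 4.47% and 2.82% of all measured genes. Of those 9 genes, 5 were in the iron list.

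**Figure D5:**
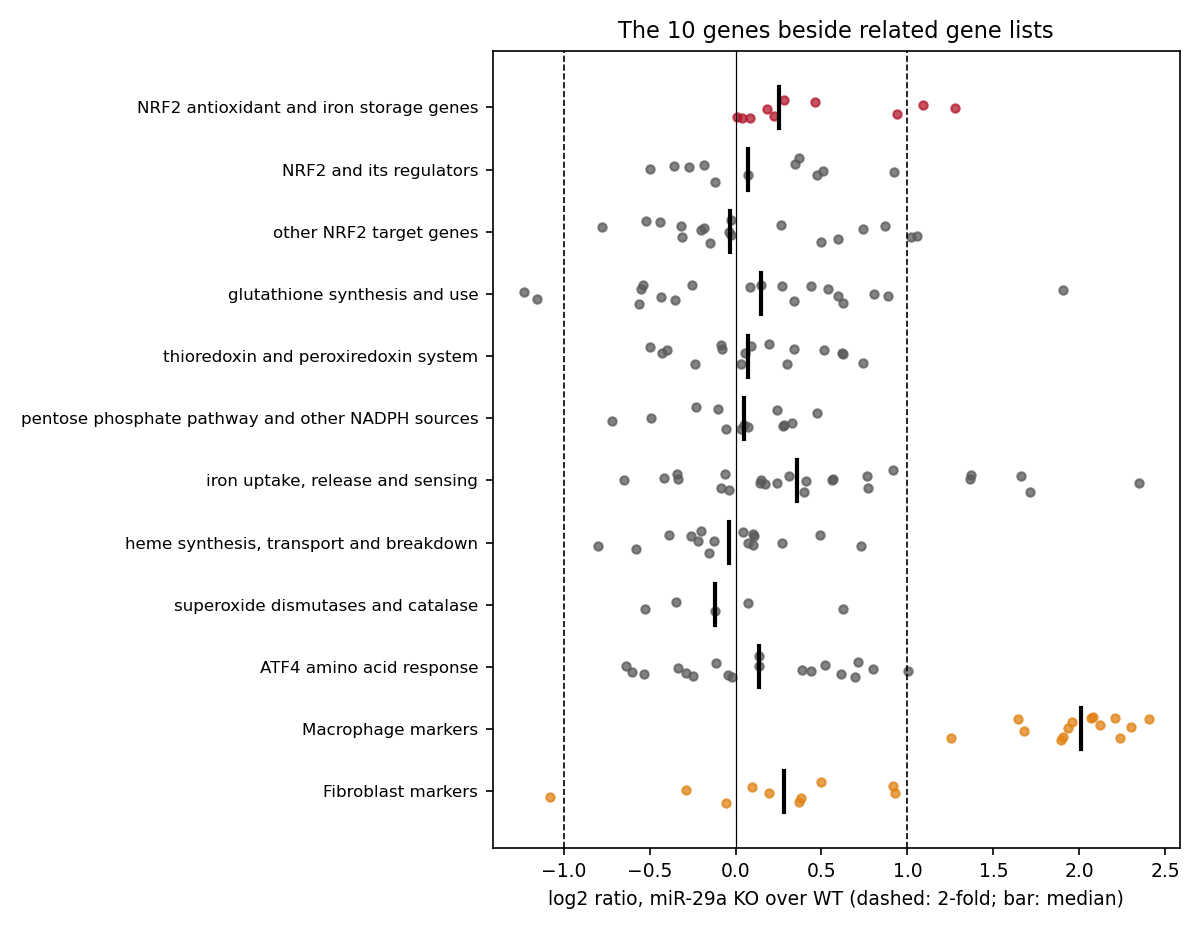
Log2 ratio (KO over WT) of each measured gene of the 10 (red), of 9 related lists (grey) and of macrophage and fibroblast markers (orange); black bars are medians and dashed lines mark 2-fold. The medians of the grey lists lie between -0.12 and 0.36, that of the 10 genes is 0.25, and the macrophage markers lie apart at a median of 2.01.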

How the data were processed

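RNA of pooled tissue, labelled as retina, was sequenced as 1 library per genotype. Reads were aligned to GRCm38 (mm10) with HISAT2, per the submitters' processing notes. Which counter, annotation and strand setting were used is not given in the sources used here. Deposited values are raw counts per gene and the authors' FPKM (counts per length and library size). The FPKM are used to compare levels between genes and, with 0.5 added, as an alternative for the log2 ratio. Of the genes in the tables, 4 whose counts and FPKM did not keep 1 ratio across libraries were left out, and 52489 matched a GENCODE M21 identifier. Depth was 24876925 counts (KO) and 26805902 counts (WT), and 3 counts, the limit that a count of 0 allows, equal 0.121 CPM (KO) and 0.112 CPM (WT).

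Counts were divided by library totals to give CPM. The log2 ratio was taken after adding 0.5 CPM to each library, for genes with at least 50 counts in the higher library, and 2-fold counted as a call. Folds were computed without that addition, with 95% exact (Clopper-Pearson) counting intervals, and differences between count ratios with normal-approximation intervals. The 10 genes and all lists were chosen with earlier results of these data known. From each pathway list the text names the 3 measured genes with the largest absolute log2 ratio and the 2 with the highest CPM. The rule for marker lists was the 3 with the highest CPM. The text gives most of these lists by their sums and counts, and that of pigment epithelium gene by gene. The markers it names at 0 were named after their values were seen. GC content and length came from the longest GENCODE M21 transcript, in 10 bins each, and promoters and miRNAs from RefSeq GRCm38.p6. The heme transporter genes Flvcr1 and Flvcr2 were matched by their older symbols. Other scalings, pseudocounts, minimums and folds were tried as alternatives. Scripts were tested on simulated data and ran in R 4.3.3 with edgeR 4.0.16 (TMM factors only) and in Python 3.11.15 with scipy 1.17.1 and pandas 2.3.3.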

Additional observations from a re-analysis of the deposited data

How the results depend on the processing

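No paired analysis was possible because there is 1 library per genotype, and for the same reason no replicate could be left out. Of the 10 genes, 0 were higher by 2-fold after the GC and length correction and 0 at 4-fold, beside 2 as reported. The median log2 ratio of the 10 genes was 0.19 with median-of-ratios factors, against -0.004 over all measured genes. As reported, these medians were 0.25 and 0.06. After the GC and length correction they were 0.32 and 0, the latter set by the correction itself. Over all measured genes, 351 were higher and 214 lower with 2 CPM added, 340 higher and 213 lower with a minimum of 200 counts, 322 higher with the authors' FPKM, 1645 higher and 1100 lower at 1.5-fold, and 103 higher and 58 lower at 4-fold, against 554 higher and 349 lower as reported. Of the genes in the 9 related lists, 29 were higher and 8 lower at 1.5-fold, beside 13.3% and 8.88% of all measured genes. In these lists 1 was higher and 0 lower at 4-fold, and 1 was lower after the GC and length correction. Of the 11 promoter windows, 1 held the longer element. Slc7a11 and Gclc were past 2-fold under 9 of 10 alternatives, Gsta3 and Abcc4 under 6. Depth limits little here, since the fewest counts among the 10 genes were 2590 (KO) and 1144 (WT), while the spread between animals is not measured.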

Other observations

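Paralogs of the 10 genes were compared in the same way. Hmox2, the constitutive heme oxygenase gene, had 57.4 CPM in the KO library and 53.4 CPM in the WT library. Nqo2, a quinone reductase gene, had 44.9 CPM (KO) and 28.7 CPM (WT), a fold of 1.56 (95% counting interval 1.43 to 1.72), beside 1.92 for Nqo1. Txnrd3 had 304 counts (KO) and 225 counts (WT), a fold of 1.46 (1.22 to 1.74), and the mitochondrial Txnrd2 had 275 counts (KO) and 289 counts (WT), an interval of 0.866 to 1.21.

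Endothelial markers were also higher in the KO library, 4 of 5 measured by 2-fold or more, with sums of 43.6 CPM (KO) and 18.1 CPM (WT). Of the fibroblast markers, 0 of 10 were higher by 2-fold and 1, Postn (named after its values were seen), was lower, with a median log2 ratio of 0.28.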
